A study of Mus musculus with 42 samples.

Results

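The cytosolic chaperones and heat shock genes are the machinery that folds new proteins and holds damaged ones in solution. The set described here was chosen by gene symbol, with earlier results of these data known. It holds the 2 cytosolic HSP90 genes, 7 HSP70 and HSP110 genes, 3 mitochondrial chaperones, 6 HSP40 genes, 3 small heat shock proteins with the co-chaperone Bag3, 7 co-chaperones of HSP90 and HSP70, 7 subunits of the chaperonin TRiC and 2 heat shock factors. Of the 37907 genes in the expression table, 38 were members, every listed symbol was found, and every member passed the filter on low values.

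RNA-seq libraries were made from 4 nuclei of the hypothalamus of adult male wild-type C57/BL6 mice: the arcuate (ARC), ventromedial (VMH), dorsomedial (DMH) and paraventricular (PVN) nuclei. Mice had free access to food or were fasted for 24 hours before the brain was taken, and no other treatment or allele separated the groups used here. Nuclei were cut from frozen sections by laser capture, the small RNA yield was amplified (NuGEN Ovation), and sequencing kept no strand information. The 42 libraries were 5 fed and 5 fasted from the ARC, 6 and 6 from the VMH, 5 and 4 from the DMH, and 6 and 5 from the PVN. The nuclei came from the same brains, but the labels do not say which libraries share a mouse. Each library was therefore treated as independent. There were fewer mice than libraries, so p-values of tests that combine nuclei are too small, by an amount that was not determined. Tests that compare nuclei leave out this pairing, so their p-values are not exact and can be too large. Levels are in RPKM, which divides reads by gene length and library size, so levels of different genes can be set side by side per length.

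Estimated depth ran from 1.34 to 13.25 M reads per library, and in the DMH the fasted libraries were deeper (4.77 to 13.25 M reads) than the fed ones (2.94 to 5.05 M reads). Libraries fell into 3 batches of 10, 16 and 16, inferred from values that recur in the table, and batch 1 held no fasted DMH library. Summed RPKM of listed marker genes followed the labels. That of Npy, Agrp and Pomc was 836 to 2380 in ARC libraries and at most 56.6 elsewhere. For Nr5a1 and Fezf1 it was 65.1 to 165 in VMH libraries and at most 9.57 elsewhere. Npvf, Hcrt and Pmch summed to 341 to 1501 in DMH libraries and at most 37.0 elsewhere. Sim1, Oxt and Avp summed to 4459 to 8502 in PVN libraries and at most 167 elsewhere. Hcrt and Pmch are best known from the lateral hypothalamus beside the DMH, so the DMH sum cannot separate the DMH from that tissue. The DMH sum also varied widely between fed libraries. The other sums do not show whether neighbouring tissue was captured too. Agrp, the fasting-induced orexigenic peptide, rose in the fasted ARC with a log2 change of 1.61 ± 0.33 (SE, adjusted p = 0.0613).

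As background, HSP70 proteins bind exposed hydrophobic stretches of a client and release them in a cycle driven by ATP, HSP40 proteins deliver the client and start the cycle, and HSP110 proteins reset it by exchanging the nucleotide. HSP90 takes partly folded clients such as kinases and steroid receptors from HSP70, helped by co-chaperones that bridge, pace or load it. Under heat or proteotoxic stress the transcription factor HSF1 forms a trimer that binds heat shock elements, inverted repeats of the unit GAA, and induces many of these genes together, while in unstressed neurons most of them run at a high constitutive level.

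Heat shock elements were searched for in the 250 bases before RefSeq transcription starts (GRCm38.p6), because heat shock factors act on many of the members through them. An element of 2 units was written GAANNTTC or TTCNNGAA, each of which reads the same on both strands, and an element of 3 units was written GAANNTTCNNGAA or TTCNNGAANNTTC, which contain the shorter forms. The promoter table held 30 members. It did not hold Hsp90aa1, Hsp90ab1, Hspa8, Hspa9, Cryab, St13, Cct4 and Hsf1. A gene was counted if any of its listed starts had a match. An element of 2 units lay before 13 of 30 members (43.3%) and before 3932 of 27025 genes in the table (14.55%). For Dnaja1, Dnajb4, Hspd1, Cct2 and Cct5, other listed starts had no match. An element of 3 units lay before 3 members, Hspd1, Hspe1 and Dnajb6, and before 139 genes (0.51%). A match is a description of letters in this window and does not show that a factor binds.

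The windows below, at most 30 bases each, are shown 5′ to 3′ on the strand of the gene with the element in capitals. The first 4 belong to members that were lower in fasted mice in the comparison over all nuclei. Hspa1a stands for the stress-inducible HSP70 pair, since Hspa1b carries the same letters at chr17:34959324-34959353, and Dnajb6 is a gene with a 3-unit element whose RNA differed little with fasting.
Dnaja1, chr4:40722333-40722362, plus strand: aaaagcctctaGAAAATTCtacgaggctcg
Hsph1, chr5:149636351-149636380, minus strand: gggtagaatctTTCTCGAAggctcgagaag
Dnajb4, chr3:152193846-152193870, minus strand: ttcgttcgctgTTCTAGAAagtaca
Hspd1, chr1:55088053-55088082, minus strand: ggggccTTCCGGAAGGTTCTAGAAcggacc
Hspa1a, chr17:34972242-34972271, minus strand: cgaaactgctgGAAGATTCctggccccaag
Dnajb6, chr5:29735844-29735872, plus strand: agctccgaGAATCTTCCGGAAcgctagac

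Hspd1 and Hspe1 lie head to head, and the Hspd1 window read from the opposite strand is the Hspe1 window, so both counts above rest on the same bases. Of the 12 members called lower over all nuclei (below), 9 were in the promoter table and 4 of these carried a 2-unit element, while 9 of the other 21 members in the table did.

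Levels of the members spanned a wide range. Averaged over the 8 groups, Hsp90ab1, the constitutive cytosolic HSP90, was the highest at 614 RPKM. Hsp90aa1, the stress-inducible HSP90, followed at 165 RPKM, then Hspa8, the constitutive HSP70, at 144 RPKM, the HSP110 gene Hsph1 at 125 RPKM and the adaptor Stip1 at 118 RPKM. TRiC subunits ran from 20.4 RPKM for Cct3 to 87.0 RPKM for Cct7. The heat shock factors stood at 24.4 RPKM for Hsf1 and 14.4 RPKM for Hsf2. At the other end were the stress-inducible HSP70 genes Hspa1a at 3.66 RPKM and Hspa1b at 0.912 RPKM, the small heat shock protein Hspb1 at 3.90 RPKM and Bag3 at 5.04 RPKM. Hspa1b came down to its no-read value, which recurred as 0.27 RPKM in 3 libraries of batch 1 and as 0.521 RPKM in 3 libraries of batch 2, so its level is poorly resolved. The members also differed in how much they varied between libraries of the same group. That standard deviation of log2(RPKM + 1) was 0.12 for both HSP90 genes and 0.13 for Hspa8, against 0.67 for Hspa1a, 0.56 for Hspb8, 0.53 for Cryab and 0.51 for Hspb1.

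Reads of near-identical copies cannot be told apart in these values, and 12 members shared at least 10% of their 50-base stretches with another gene. Hspa1a shared 66.3% and Hspa1b 62.3%, mostly with each other. Hsp90aa1 shared 47.5%, Hspd1 42.1% and Hspa8 39.4%, mostly with pseudogenes. Of these, Gm12346, the main partner of Hsp90aa1, had a median of 0.924 RPKM against 160.0 RPKM for Hsp90aa1. Hspb1 shared 50.1%, Hspe1 22.8%, Dnajb6 21.0%, Dnaja1 20.6% and Ptges3 19.6%. Cryab shared 13.3% with Hspb2, and Tcp1 shared 13.9%. Exons of other genes overlapped 19.0% of the exon length of Hspa1a, 17.0% of Cryab, 16.9% of Tcp1 and 10.8% of Dnaja1. For every other member the overlap was at most 7.6%.

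Every call of a member in a fasting comparison was toward lower RNA in fasted mice. The changes below are fasted minus fed on the scale of log2(RPKM + 1) with their standard error (SE), from a limma fit to all 42 libraries, and a gene is called at an adjusted p under 0.1 over the 33579 genes tested. Hsp90aa1 fell in the ARC and the PVN, and Dnaja1, a cytosolic HSP40, fell in the PVN. Averaged over the 4 nuclei, 12 members fell and 0 rose. In the ARC 1 of 38 members was called, against 0.0566% of all genes (0.0179% lower). In the PVN 2 members were called, against 0.0715% of all genes (0.0179% lower). With limma, 0 members were called in the VMH, against 0.131% of all genes, and 0 in the DMH, against 0.0238%. The members with an unadjusted p under 0.05 numbered 12, 17, 8 and 13 for ARC, VMH, DMH and PVN, against 7.5%, 7.31%, 6.48% and 5.53% of all genes. In the comparison averaged over the nuclei 12 of 38 members (31.6%) were called, all lower, against 0.5% of all genes called and 0.286% called lower. Because nuclei share mice, the p-values of this average are too small. The set was chosen with earlier results of these data known, so the shares beside all genes are descriptive and no independent test. In bulk tissue, fewer cells of a type and less RNA per cell cannot be told apart.

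Most members that were not called had a negative value too. Of 38 members, 34, 32, 33 and 33 had a negative change in ARC, VMH, DMH and PVN, and 35 on average. The median member changed by -0.27, -0.23, -0.17 and -0.21, in the same order of nuclei, and the DMH value was -0.11 without fed DMH replicate 2. Because most genes of the table lie near the no-read value, the members were set beside 5654 well-detected genes, those with a mean of at least 10 RPKM and no recurring no-read value. The median of these genes was -0.02, -0.04, 0.01 and -0.03, again in that order. A negative change was seen in 54.5%, 58.8%, 46.4% and 56.0% of them, and in 56.4% on average. Averaged over the nuclei, the median member changed by -0.24 and the median well-detected gene by -0.02, and 73 well-detected genes (1.29%) were called lower, including the 12 members, all of which were among the 32 members of this class. In all 4 nuclei, 26 of 38 members (68.4%) had a negative change, against 5.57% of all genes and 13.3% of well-detected genes. The 2 members with a positive change in all 4 nuclei were the HSP40 genes Dnajb5 and Dnajb6, 5.26% of the members against 6.1% of all genes.

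**Figure D1:**
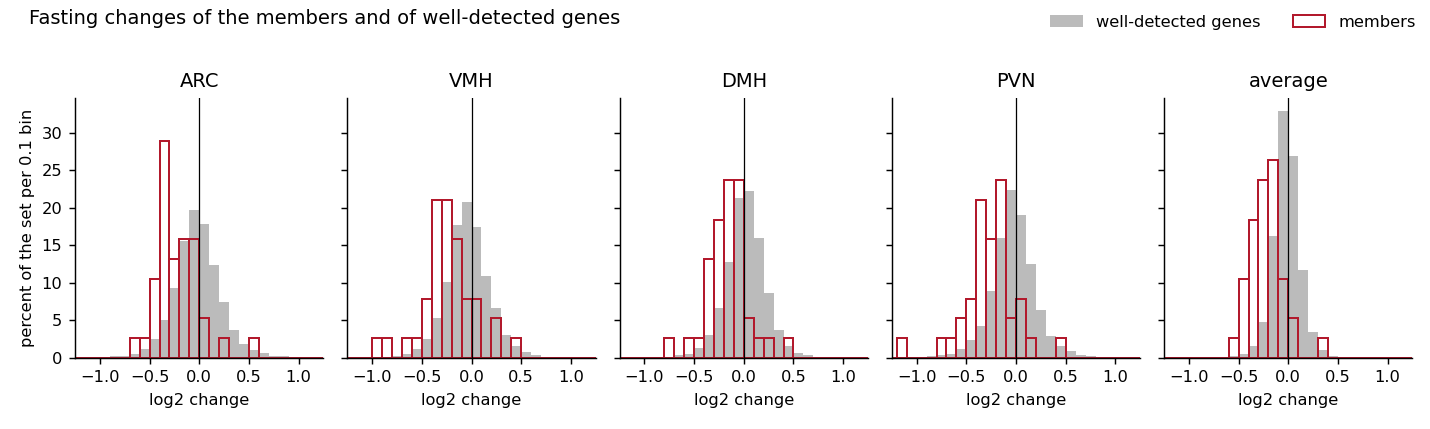
Percent of genes (vertical axis) by fasting change, fasted minus fed in log2(RPKM + 1), in bins of 0.1, for the 38 members (red outlines) and 5654 well-detected genes (grey), in each nucleus and for the average of the 4 nuclei. The members lie to the left of the well-detected genes in each panel, with medians of -0.27, -0.23, -0.17, -0.21 and -0.24.

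Fed and fasted values were fully separate for 9 of the 152 pairs of a member and a nucleus, and in each of these the fasted libraries were the lower ones. In the ARC these were Hspa4, Hsph1 and Ahsa1 (7.9% of the members, against 0.742% of all genes). In the VMH they were Hsp90aa1, Hspa4l and Hspd1 (7.9%, against 0.277%), and in the PVN Hsp90aa1, Dnaja1 and Tcp1 (7.9%, against 0.402%). In the DMH there were 0 members, against 1.15% of all genes. Shares over well-detected genes were not computed for these counts. The smallest two-sided exact permutation p is 0.00794 in the ARC and DMH and 0.00216 in the VMH and PVN.

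**Figure D2:**
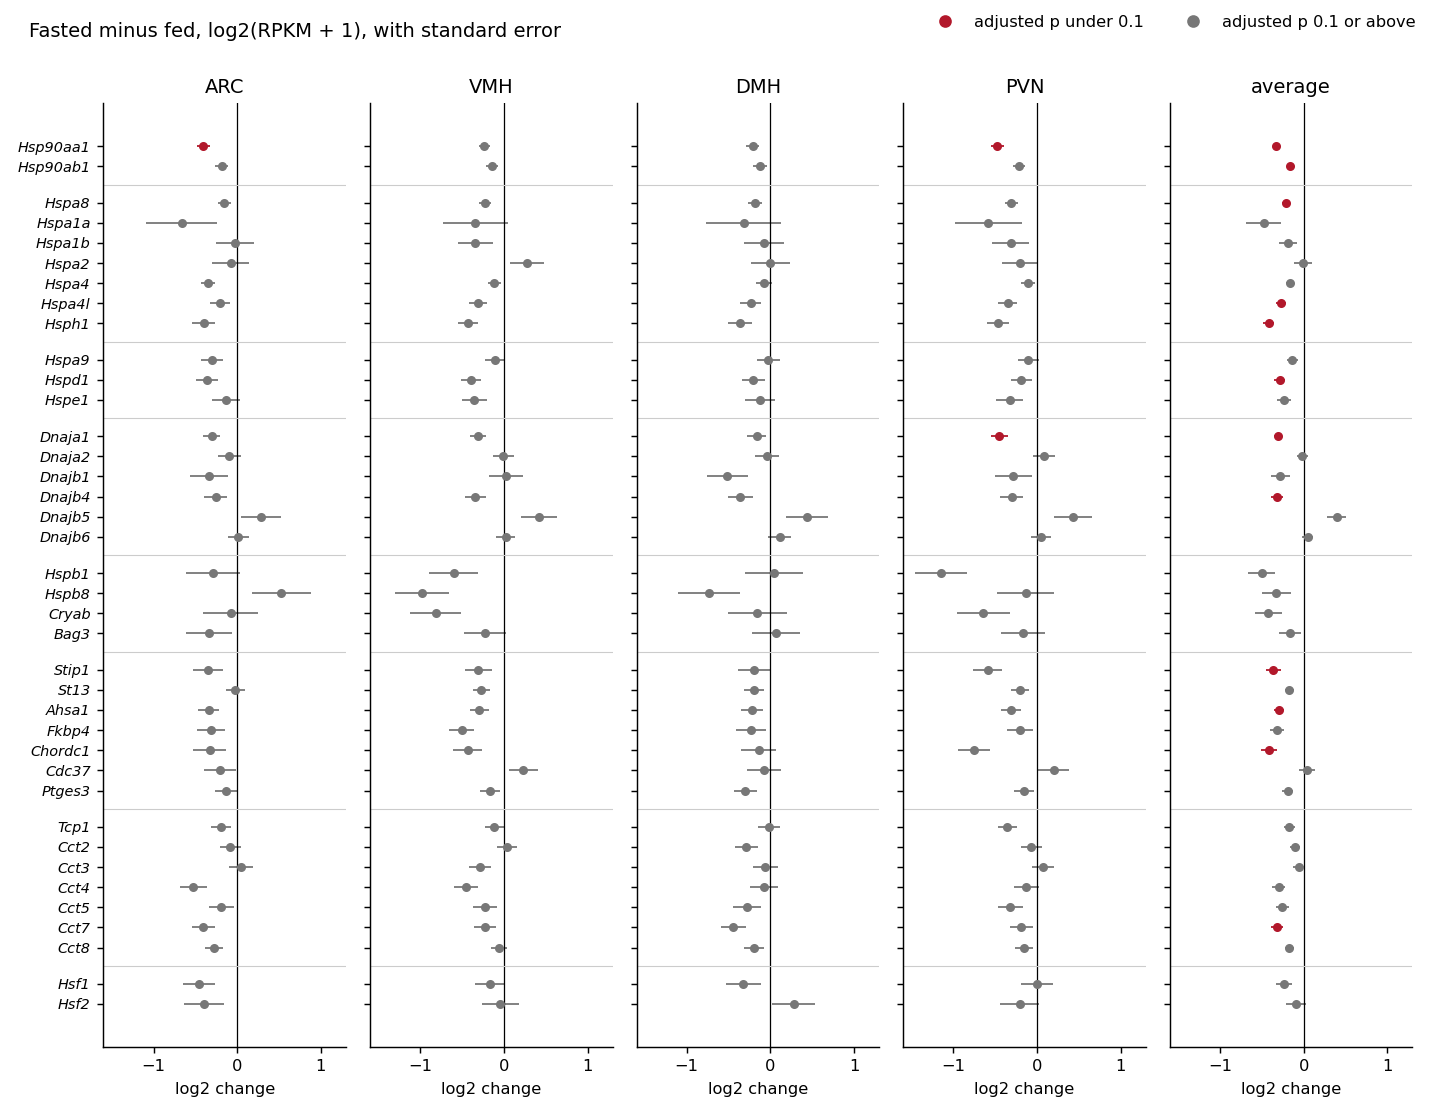
Fasting change of each member (fasted minus fed, log2(RPKM + 1); point and SE) in the 4 nuclei and averaged over them, with members ordered by role and roles separated by grey lines. Red points passed an adjusted p under 0.1; they number 1 in the ARC, 2 in the PVN and 12 in the average, all left of 0.

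Among the HSP90 genes, the stress-inducible Hsp90aa1 had the firmest change of the set. Values are given from lowest to highest within a group, and as lowest, median and highest for the groups of 6. In the ARC, Hsp90aa1 stood at 188, 201, 205, 230.4 and 237 RPKM in fed and 146, 149.6, 151, 156 and 201 RPKM in fasted libraries. In the VMH, Hsp90aa1 was 159.9, 173 and 193 RPKM in fed and 130.5, 148 and 159.5 RPKM in fasted libraries. The groups overlapped in the ARC through 1 fasted library at 201 RPKM and did not overlap in the VMH. In the DMH, Hsp90aa1 measured 143, 160.0, 162, 171 and 188 RPKM in fed and 139, 139.5, 142 and 145 RPKM in fasted libraries. In the PVN, Hsp90aa1 was at 170.5, 185 and 213 RPKM in fed and 125, 126, 136, 137 and 146 RPKM in fasted libraries. In the DMH 1 fed library lay inside the fasted range, and in the PVN every fasted library was below every fed one. The log2 change of Hsp90aa1 in ARC libraries was -0.41 ± 0.08 (adjusted p = 0.0361). PVN libraries gave -0.47 ± 0.07 (adjusted p = 0.00166), where the geometric mean of RPKM fell by 28.1%. In the VMH it was -0.23 ± 0.07 (adjusted p = 0.312, exact permutation p = 0.00216) and in the DMH -0.21 ± 0.08 (adjusted p = 0.634). Averaged over the nuclei it was -0.33 ± 0.04 (adjusted p = 1.63e-06). The change was negative in 11 of 11 combinations of a nucleus and a batch, from -0.66 to -0.15, which share mice and are not independent. The ARC call was lost without fed replicate 1, fed replicate 2 or fasted replicate 1 (adjusted p = 0.111, 0.106 and 0.14), and a fit of 1 nucleus at a time, with fewer samples, lost both calls (0.758 for the ARC and 0.111 for the PVN).

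The constitutive Hsp90ab1 was lower by less. In the ARC, Hsp90ab1 stood at 677, 686, 734, 748 and 779.9 RPKM in fed and 554, 629.9, 635, 676 and 694 RPKM in fasted libraries. In the VMH, Hsp90ab1 was 604, 618 and 641 RPKM in fed and 434, 586 and 621 RPKM in fasted libraries. The groups overlapped in both, and 1 fasted VMH library at 434 RPKM lay far under the other 5. In the DMH, Hsp90ab1 measured 509, 509, 517, 554 and 618 RPKM in fed and 468, 477, 504 and 536 RPKM in fasted libraries. In the PVN, Hsp90ab1 was at 663, 691 and 780.1 RPKM in fed and 524, 591, 610.2, 654 and 681 RPKM in fasted libraries. These groups overlapped too. The change was called only on average, at -0.17 ± 0.04 (adjusted p = 0.031).

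Of the 7 HSP70 and HSP110 genes, 3 fell on average and the other 4 were not called. Hspa8, the constitutive HSP70 that also uncoats clathrin vesicles, changed by -0.22 ± 0.04 (adjusted p = 0.00297). In the ARC, Hspa8 stood at 144, 161, 164, 166 and 167 RPKM in fed and 131, 141, 143, 149.9 and 155 RPKM in fasted libraries. In the VMH, Hspa8 was 125, 145 and 156 RPKM in fed and 108, 123 and 137 RPKM in fasted libraries. In the DMH, Hspa8 measured 124, 125, 135, 156 and 168 RPKM in fed and 119.7, 120.4, 124 and 132 RPKM in fasted libraries. The groups overlapped in these 3 nuclei, with the fasted libraries on the low side. In the PVN, Hspa8 was at 156, 176 and 204 RPKM in fed and 124, 133, 143, 152 and 156 RPKM in fasted libraries. In the PVN the overlap was between the highest fasted and the lowest fed libraries.

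The largest change of a called member belonged to Hsph1, an HSP110 protein that resets HSP70, at -0.42 ± 0.07 on average (adjusted p = 0.000542). In the ARC, Hsph1 stood at 146, 155, 158, 181 and 189 RPKM in fed and 105, 115, 124, 139.8 and 143 RPKM in fasted libraries. In the VMH, Hsph1 was 143, 157 and 197 RPKM in fed and 82.2, 129 and 147 RPKM in fasted libraries. In the ARC the groups did not overlap (exact permutation p = 0.00794), and in the VMH 1 fasted library reached into the fed range. In the DMH, Hsph1 measured 96.9, 98.2, 106, 107 and 149 RPKM in fed and 76.9, 80.6, 82.4 and 102 RPKM in fasted libraries. In the PVN, Hsph1 was at 100.2, 129.6 and 159.8 RPKM in fed and 88.0, 89.4, 90.6, 91.2 and 115 RPKM in fasted libraries. In both of these nuclei 1 fasted library lay among the fed ones. The changes were -0.40 ± 0.13, -0.43 ± 0.12, -0.37 ± 0.14 and -0.46 ± 0.13 for ARC, VMH, DMH and PVN, and none was called in a single nucleus.

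Hspa4l, another HSP110 gene, changed by -0.27 ± 0.06 on average (adjusted p = 0.0219). In the ARC, Hspa4l stood at 22.5, 29.5, 30.6, 33.6 and 38.4 RPKM in fed and 23.0, 24.5, 26.0, 28.1 and 31.0 RPKM in fasted libraries. In the VMH, Hspa4l was 45.1, 47.4 and 55.8 RPKM in fed and 25.5, 42.2 and 43.3 RPKM in fasted libraries. In the ARC the fasted libraries lay inside the fed range, and in the VMH the groups did not overlap (exact permutation p = 0.00216). In the DMH, Hspa4l measured 33.4, 37.4, 38.9, 38.9 and 42.8 RPKM in fed and 28.9, 33.0, 33.5 and 34.0 RPKM in fasted libraries. In the PVN, Hspa4l was at 27.2, 30.4 and 37.0 RPKM in fed and 19.8, 23.9, 25.1, 25.6 and 27.9 RPKM in fasted libraries. In the DMH and PVN the overlap was slight. The remaining HSP110 gene, Hspa4, had fed and fasted libraries that did not overlap in the ARC, with a change of -0.35 (adjusted p = 0.223), and missed the threshold on average (-0.16, adjusted p = 0.105). The stress-inducible Hspa1a had the largest but also the most variable difference of the family, -0.47 on average with an adjusted p of 0.619, and Hspa1b differed by -0.19 (adjusted p = 0.802). Summing Hspa1a and Hspa1b, which share reads, gave -0.47 ± 0.20 (adjusted p = 0.57). Hspa2, known mainly from the testis, stood at -0.00 on average.

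Among the mitochondrial chaperones, Hspd1, the folding chamber HSP60, fell on average by 0.29 ± 0.06 on the log2 scale (adjusted p = 0.029). In the ARC, Hspd1 stood at 69.3, 71.2, 87.4, 88.5 and 103 RPKM in fed and 52.3, 58.9, 62.5, 70.8 and 81.1 RPKM in fasted libraries. In the VMH, Hspd1 was 64.6, 68.8 and 79.6 RPKM in fed and 40.7, 58.4 and 60.3 RPKM in fasted libraries. Groups did not overlap in the VMH (exact permutation p = 0.00216), whereas in the ARC the fasted libraries reached well into the fed range. In the DMH, Hspd1 measured 63.6, 68.7, 72.7, 74.7 and 85.5 RPKM in fed and 51.7, 60.7, 66.5 and 75.2 RPKM in fasted libraries. In the PVN, Hspd1 was at 56.1, 75.7 and 88.6 RPKM in fed and 56.6, 61.3, 61.8, 65.9 and 76.4 RPKM in fasted libraries. The DMH and PVN groups overlapped broadly. Hspe1, the lid HSP10 that shares its promoter with Hspd1, was at -0.23 (adjusted p = 0.37), and Hspa9, the mitochondrial HSP70, at -0.14 (adjusted p = 0.675).

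The HSP40 family was mixed, with 4 members negative and 2 positive on average. Dnaja1, a farnesylated partner of HSP70, fell in the PVN by 0.45 ± 0.10 on the log2 scale (adjusted p = 0.0922, exact permutation p = 0.00433) and on average by 0.31 ± 0.05 (adjusted p = 0.000951). In the ARC, Dnaja1 stood at 39.6, 44.6, 50.5, 53.5 and 55.9 RPKM in fed and 35.6, 35.8, 37.0, 41.6 and 46.2 RPKM in fasted libraries. In the VMH, Dnaja1 was 37.2, 42.5 and 44.5 RPKM in fed and 28.1, 34.4 and 38.0 RPKM in fasted libraries. In both nuclei the fasted libraries were on the low side with some overlap. In the DMH, Dnaja1 measured 27.8, 35.4, 39.4, 39.6 and 42.6 RPKM in fed and 31.4, 31.8, 32.9 and 34.0 RPKM in fasted libraries. In the PVN, Dnaja1 was at 38.3, 46.5 and 49.7 RPKM in fed and 29.1, 31.8, 32.3, 33.9 and 37.7 RPKM in fasted libraries. In the DMH the 4 fasted values fell inside the fed range, and in the PVN the groups did not overlap. The PVN call rests on few libraries: it was kept without fasted replicate 4 or fed replicate 5 (adjusted p = 0.0626 and 0.0595) and lost without any of the other 9, up to 0.284 without fed replicate 3.

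Dnajb4 changed by -0.32 ± 0.07 on average (adjusted p = 0.0268). In the ARC, Dnajb4 stood at 38.8, 49.7, 52.6, 59.8 and 61.5 RPKM in fed and 36.8, 39.7, 42.1, 46.6 and 52.4 RPKM in fasted libraries. In the VMH, Dnajb4 was 36.0, 42.3 and 55.8 RPKM in fed and 24.2, 33.3 and 43.1 RPKM in fasted libraries. In the DMH, Dnajb4 measured 35.6, 38.2, 42.3, 49.0 and 49.7 RPKM in fed and 28.4, 31.2, 35.7 and 37.4 RPKM in fasted libraries. Fed and fasted libraries of Dnajb4 overlapped in each of these nuclei. In the PVN, Dnajb4 was at 41.3, 49.3 and 65.0 RPKM in fed and 37.1, 38.1, 41.4, 41.6 and 47.0 RPKM in fasted libraries. In the PVN they overlapped too. Dnajb1, the classical heat-induced partner of HSP70, was at -0.28 ± 0.11 (adjusted p = 0.541), with -0.51 in the DMH and 0.03 in the VMH. Dnajb5 had positive values, 0.29, 0.42, 0.44 and 0.43 for ARC, VMH, DMH and PVN, and 0.39 ± 0.12 on average, which was not called (adjusted p = 0.20). It was higher in fasted mice in 10 of 11 combinations of a nucleus and a batch. These combinations share mice and are not independent, and the share of all genes with such a count was not computed. Dnajb6 (0.05) and Dnaja2 (-0.01) were close to 0.

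None of the small heat shock proteins was called in a fasting comparison, and they were the most variable role. Hspb1 differed by -1.15 in the PVN (adjusted p = 0.30), where the fed libraries ran from 2.99 to 12.5 RPKM and the fasted ones from 1.39 to 3.76 RPKM. Hspb8 differed by 0.52 in the ARC. Its VMH difference was -0.97 (adjusted p = 0.369) and its DMH difference -0.73 (adjusted p = 0.814). Cryab differed by -0.81 in the VMH (adjusted p = 0.456) and -0.64 in the PVN. Bag3, which joins HSP70 to small heat shock proteins, was between -0.34 and 0.06. In the VMH the summed RPKM of 7 astrocyte markers was also lower in fasted mice (231 to 293, against 270 to 354 in fed mice), and 1 of them, the water channel gene Aqp4, fell by 0.94 on the log2 scale (adjusted p = 0.0477). The summed RPKM of 4 mural markers was lower in the fasted VMH (35.9 to 56.0, against 55.0 to 105 fed) and in the fasted PVN (78.0 to 108, against 101 to 126 fed), with a slight overlap in each. In the PVN, where Hspb1 differed most, that of 5 ependymal and tanycyte markers was 4.38 to 5.63 in fasted and 5.17 to 8.61 in fed libraries. The part of these cell types in the values was not tested.

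Among the co-chaperones, 3 of 7 fell on average. Ahsa1, which speeds the ATPase of HSP90, changed by -0.29 ± 0.06 (adjusted p = 0.0197). In the ARC, Ahsa1 stood at 82.7, 85.5, 86.4, 100.5 and 103 RPKM in fed and 59.3, 69.5, 73.5, 76.9 and 81.6 RPKM in fasted libraries. In the VMH, Ahsa1 was 76.2, 93.3 and 116 RPKM in fed and 61.5, 69.6 and 99.98 RPKM in fasted libraries. In the ARC the groups did not overlap (exact permutation p = 0.00794), and in the VMH 2 fasted libraries lay among the fed ones. In the DMH, Ahsa1 measured 69.3, 69.8, 75.8, 86.6 and 92.2 RPKM in fed and 58.1, 66.2, 71.1 and 73.4 RPKM in fasted libraries. In the PVN, Ahsa1 was at 74.2, 86.6 and 95.5 RPKM in fed and 58.5, 60.5, 73.2, 77.0 and 78.3 RPKM in fasted libraries. Fasted libraries were mostly below the fed ones in the DMH and PVN, with some overlap.

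Chordc1, a zinc-binding HSP90 partner, changed by -0.41 ± 0.10 on average (adjusted p = 0.0418). In the ARC, Chordc1 stood at 47.8, 55.0, 59.3, 62.4 and 73.6 RPKM in fed and 32.8, 43.5, 48.4, 53.9 and 60.3 RPKM in fasted libraries. In the VMH, Chordc1 was 44.3, 49.5 and 75.3 RPKM in fed and 27.9, 38.8 and 51.7 RPKM in fasted libraries. In the DMH, Chordc1 measured 42.5, 42.9, 45.7, 53.4 and 66.3 RPKM in fed and 40.7, 42.3, 46.6 and 50.04 RPKM in fasted libraries. These groups overlapped, most in the DMH. In the PVN, Chordc1 was at 34.3, 55.0 and 76.1 RPKM in fed and 21.6, 32.4, 32.9, 35.8 and 45.6 RPKM in fasted libraries. In the PVN 1 fed library lay among the fasted ones, and the change there was -0.75 ± 0.19 (adjusted p = 0.18).

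Stip1, the adaptor that passes clients from HSP70 to HSP90, changed by -0.36 ± 0.09 on average (adjusted p = 0.0581). In the ARC, Stip1 stood at 125, 134, 138, 139 and 161 RPKM in fed and 79.0, 103, 118, 126 and 126 RPKM in fasted libraries. In the VMH, Stip1 was 84.1, 109 and 141 RPKM in fed and 66.3, 89.5 and 105 RPKM in fasted libraries. In the DMH, Stip1 measured 101, 111, 111, 124 and 155 RPKM in fed and 78.7, 101, 104 and 141 RPKM in fasted libraries. Overlap was present in each of these nuclei and broad in the DMH. In the PVN, Stip1 was at 104, 147 and 242 RPKM in fed and 91.5, 103, 104, 110.2 and 122 RPKM in fasted libraries. The fed PVN libraries spread widely, with 2 of them above every library of the other groups of Stip1. The call was lost without fasted DMH replicate 2 or fed DMH replicate 2 (adjusted p = 0.121 and 0.104). Fkbp4, an immunophilin of steroid receptor complexes, just missed the threshold at -0.31 (adjusted p = 0.104). St13 was at -0.17 (adjusted p = 0.264), Ptges3, the p23 protein, at -0.19 (adjusted p = 0.318) and the kinase loader Cdc37 at 0.04 (adjusted p = 1).

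TRiC is the ring-shaped chaperonin that folds actin and tubulin. All 7 of its measured members had a negative average change, from -0.32 to -0.06, and 1 of them, Cct7, was called at -0.32 ± 0.07 (adjusted p = 0.0268). In the ARC, Cct7 stood at 95.7, 97.4, 117, 132 and 135 RPKM in fed and 71.0, 78.5, 83.2, 97.6 and 103 RPKM in fasted libraries. In the VMH, Cct7 was 63.8, 80.3 and 98.6 RPKM in fed and 49.97, 70.0 and 80.4 RPKM in fasted libraries. The groups overlapped in both nuclei. In the DMH, Cct7 measured 80.2, 87.1, 92.0, 99.9 and 114 RPKM in fed and 51.0, 68.7, 75.2 and 85.2 RPKM in fasted libraries. In the PVN, Cct7 was at 82.1, 95.1 and 115 RPKM in fed and 66.4, 77.3, 92.7, 95.6 and 96.1 RPKM in fasted libraries. In the DMH 1 fasted library lay within the fed range, and in the PVN 3 did. Cct4 missed the threshold at -0.30 (adjusted p = 0.102). Tcp1 had fed and fasted libraries that did not overlap in the PVN (-0.35, exact permutation p = 0.00216, adjusted p = 0.583). Cct5 (-0.25), Cct8 (-0.17), Cct2 (-0.10) and Cct3 (-0.06) were not called.

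The heat shock factors themselves were not called. Hsf1 had changes of -0.46, -0.17, -0.32 and -0.00 for ARC, VMH, DMH and PVN, and -0.24 on average (adjusted p = 0.552). Hsf2 was at -0.09 on average (adjusted p = 0.917).

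**Figure D3:**
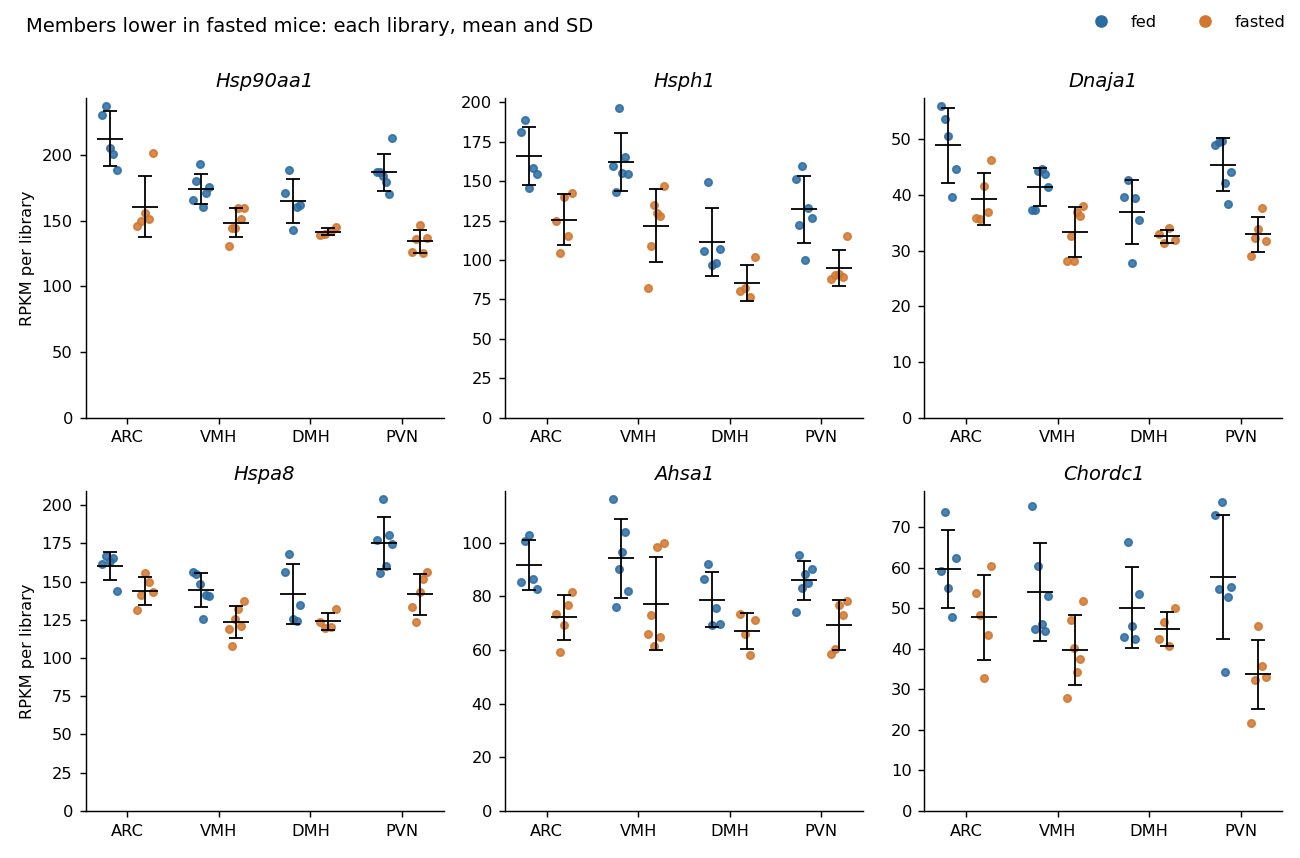
RPKM of 6 members lower in fasted mice in the comparison averaged over nuclei. Each point is a library (blue, fed; orange, fasted), black bars are the group mean and SD, and the vertical axes start at 0. Fasted means are below fed means in each nucleus, and Hsp90aa1 in the PVN shows no overlap (125 to 146 against 170.5 to 213 RPKM).

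The fasting changes did not differ detectably between nuclei. With limma, 0 of 38 members were called in the test of a difference between the 4 responses, against 0.00596% of all genes, and 2 members had an unadjusted p under 0.05, against 4.39% of all genes. This test compares nuclei that share mice, which its p-values do not account for. The 7 members with a negative change in 11 of 11 combinations of a nucleus and a batch were Hsp90aa1, Hspa8, Hspa4l, Hsph1, Dnaja1, Ahsa1 and Chordc1. All of them were among the members called on average from the same libraries, and the share of all genes with this pattern was not computed. Nuclei of a batch share mice, so the combinations are not independent. The size differed between batches: the median change of the members was -0.42, -0.33 and -0.07 in batches 1, 2 and 3 of the ARC. It was -0.44, -0.20 and -0.11 for the VMH, -0.26, -0.30 and -0.19 for the PVN, and -0.26 and -0.04 in batches 2 and 3 of the DMH. Each of these values rests on 1 or 2 libraries per state.

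Genes around the set were listed for comparison. Among 29 further chaperones of the cytosol and mitochondria tested, 0 were called in a single nucleus. The median average change of this list was -0.06. On average 2 were called, against 0.5% of all genes. The 2 were Cct6a, a TRiC subunit, at -0.37 ± 0.08 (adjusted p = 0.0294), and Fkbp5, a glucocorticoid-induced HSP90 co-chaperone, at 0.73 ± 0.16 (adjusted p = 0.0219). Fkbp5 is a low gene, and its change was 0.40 with a pseudocount of 5 and 0.91 with one of 0.1, called in both. In the PVN Fkbp5 stood at 1.13, 2.35 and 3.14 RPKM (lowest, median and highest) in the fed libraries and at 4.65, 5.21, 7.05, 7.13 and 9.87 RPKM in the fasted ones, without overlap.

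Of 18 chaperones of the endoplasmic reticulum, 2 fell in the VMH and 0 in the other nuclei. In the VMH 0.131% of all genes were called and 0.0596% were called lower. Hspa5 (BiP), the HSP70 of that compartment, changed by -0.48 ± 0.11 in the VMH (adjusted p = 0.0828), where the 6 fed libraries ran from 107 to 138 RPKM and the 6 fasted ones from 75.0 to 107 RPKM. Hsp90b1, its HSP90, changed by -0.31 ± 0.07 in the VMH (adjusted p = 0.0817) and by -0.16 ± 0.04 on average (adjusted p = 0.029). The median change of this list on average was -0.12.

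Rbm3, an RNA-binding protein induced by mild cold, moved the other way. It rose on average by 0.66 ± 0.10 on the log2 scale (adjusted p = 0.000313), with 0.71, 0.37, 0.79 and 0.78 for ARC, VMH, DMH and PVN, none called in a single nucleus. In the DMH its values were 4.27, 5.74, 5.78, 7.05 and 8.21 RPKM in the fed libraries and 8.96, 10.8, 12.3 and 13.5 RPKM in the fasted ones, without overlap. Its relative Cirbp differed by 0.54 on average (adjusted p = 0.306). Among 8 immediate-early genes 0 were called with limma in any fasting comparison, and their median average change was 0.00.

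The nuclei also differed in their levels of the members. In fed mice 18 of 38 members (47.4%) differed between nuclei by limma's F-test, against 12.4% of all genes, and in fasted mice 12 did (31.6%), against 11.9% of all genes. Of these, 10 members were called in both states, against 7.66% of all genes. Most genes of the table lie near the no-read value, while 32 of the 38 members are well detected. Shares over well-detected genes were not computed for the calls between nuclei. Fed and fasted mice were different animals. The nuclei of a state share mice, which the F-test does not account for. Of the 18 members called in fed mice, 9, 6, 2 and 1 were highest in ARC, PVN, VMH and DMH, and 10 were lowest in the VMH. Pairwise, 12 members differed between the fed VMH and PVN (against 9.84% of all genes), 11 between ARC and VMH (7.9%), 6 between ARC and DMH (2.79%), 3 between DMH and PVN (3.42%), 2 between VMH and DMH (5.24%) and 0 between ARC and PVN (4.13%). The fasted nuclei gave 12 members for ARC and VMH (8.91%), 9 for VMH and PVN (9.24%), 4 for ARC and DMH (3.21%), 2 for VMH and DMH (3.94%), 2 for DMH and PVN (3%) and 1 for ARC and PVN (4.19%).

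The 4 members of the small heat shock protein group led this ordering by the range of their fed group means. Cryab, αB-crystallin, an abundant protein of glia and lens, was highest in the VMH and lowest in the ARC, which were 1.59 ± 0.32 apart on the log2 scale (adjusted p = 0.000709). In fed mice, Cryab stood at 13.1, 14.3, 19.0, 26.9 and 32.0 RPKM in the ARC and 34.7, 61.3 and 117 RPKM in the VMH. Cryab was at 30.2, 40.4, 42.7, 49.6 and 54.2 RPKM in the fed DMH and at 14.3, 27.6 and 55.4 RPKM in the fed PVN. The VMH libraries were all above the ARC ones. In fasted mice the highest group mean was in the DMH, and the F-test was called again (adjusted p = 0.03). The summed RPKM of 8 oligodendrocyte markers followed a like order in fed mice. Its medians were 267, 169, 111 and 102 for VMH, DMH, PVN and ARC. In fasted mice they were 255, 189, 106 and 92.9 in that order, still highest in the VMH. For 7 astrocyte markers the medians were 313, 324, 268 and 243 in fed mice, in the same order of nuclei. They were 263, 309, 258 and 252 in fasted mice. The part of these cell types in the Cryab values was not tested.

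Hspb8, the partner of Bag3, was high in the PVN and ARC and low in the VMH. In fed mice, Hspb8 stood at 12.9, 12.9, 14.9, 16.1 and 19.3 RPKM in the ARC and 2.58, 4.88 and 14.2 RPKM in the VMH. Hspb8 was at 4.17, 5.03, 9.47, 11.9 and 12.1 RPKM in the fed DMH and at 8.19, 14.3 and 25.9 RPKM in the fed PVN. The VMH and PVN were 1.29 ± 0.32 apart (adjusted p = 0.00671). In fasted mice the ARC was the highest, at 15.5 to 35.5 RPKM, and the VMH the lowest, at 0.522 to 4.53 RPKM. The gap was 2.78 ± 0.34 without overlap (adjusted p = 1.77e-07). The value of 0.522 RPKM, in fasted VMH replicate 1 (1.34 M reads, the lowest depth), is close to the no-read value of 0.561 RPKM estimated from gene length. The size of this gap is therefore poorly resolved.

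Bag3 followed Hspb8 in its low level in the VMH. In fed mice, Bag3 stood at 5.09, 6.34, 7.89, 8.20 and 8.28 RPKM in the ARC and 1.47, 2.55 and 4.59 RPKM in the VMH. Bag3 was at 2.599, 2.87, 4.79, 5.47 and 7.43 RPKM in the fed DMH and at 4.92, 6.53 and 10.2 RPKM in the fed PVN. The ARC and VMH groups did not overlap and were 1.16 ± 0.26 apart (adjusted p = 0.00273), and in fasted mice 1.05 ± 0.26 apart (adjusted p = 0.00714).

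Hspb1 was highest in the fed PVN. In fed mice, Hspb1 stood at 3.19, 3.29, 4.58, 4.62 and 7.42 RPKM in the ARC and 1.84, 3.84 and 7.42 RPKM in the VMH. Hspb1 was at 1.55, 1.95, 2.59, 2.95 and 3.27 RPKM in the fed DMH and at 2.99, 9.19 and 12.5 RPKM in the fed PVN. The PVN exceeded the DMH by 1.31 ± 0.31 (adjusted p = 0.0106), though 1 PVN library lay within the DMH range. In fasted mice the nuclei were not called (adjusted p = 0.907). In the fed PVN the summed RPKM of 6 endothelial markers (48.8 to 59.8) and of 4 mural markers (101 to 126) was also higher than in the fed DMH (27.6 to 36.5 and 49.4 to 62.8), and the part of vessel cells was not tested.

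Among the abundant members, Hspa4l and Cct8 showed the clearest order of nuclei. The fed values of Hspa4l given above were highest in the VMH, where every library was above every library of the other 3 nuclei, and the VMH exceeded the PVN by 0.61 ± 0.11 (adjusted p = 0.000124) and the ARC by 0.64 ± 0.11 (adjusted p = 0.000131). In fasted mice the VMH again exceeded the PVN, by 0.65 ± 0.11 (adjusted p = 0.000102). Cct8 was high in the ARC and low in the VMH. In fed mice, Cct8 stood at 56.0, 67.5, 69.5, 79.3 and 81.1 RPKM in the ARC and 39.5, 43.4 and 50.6 RPKM in the VMH. Cct8 was at 46.2, 49.5, 49.6, 50.8 and 65.6 RPKM in the fed DMH and at 56.2, 59.5 and 72.8 RPKM in the fed PVN. The ARC and VMH did not overlap and differed by 0.67 ± 0.10 (adjusted p = 1.62e-05).

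Dnajb5 and Dnajb1 were called by a narrow margin. In fed mice, Dnajb5 stood at 6.11, 6.96, 9.92, 11.6 and 12.1 RPKM in the ARC and 2.99, 6.28 and 10.1 RPKM in the VMH. Dnajb5 was at 6.14, 6.71, 7.86, 8.49 and 10.2 RPKM in the fed DMH and at 6.81, 11.9 and 13.1 RPKM in the fed PVN. The PVN and VMH overlapped, and the F-test gave an adjusted p of 0.0817. In fed mice, Dnajb1 stood at 59.2, 72.9, 86.3, 108 and 124 RPKM in the ARC and 41.5, 61.0 and 97.3 RPKM in the VMH. Dnajb1 was at 72.7, 82.6, 91.4, 129 and 132 RPKM in the fed DMH and at 63.3, 90.5 and 119.7 RPKM in the fed PVN. For Dnajb1 the DMH was 0.72 ± 0.22 above the VMH (F-test adjusted p = 0.0921). Both calls were lost in several alternative fits, up to an adjusted p of 0.215 for Dnajb5 and 0.248 for Dnajb1 when fed libraries were fitted alone. Leaving out single fed libraries lost the call of Dnajb5 in 11 of 22 cases, up to an adjusted p of 0.258, and that of Dnajb1 in 14 of 22, up to 0.283. For all 8 members the gap between the highest and lowest fed nucleus kept its sign within each of the 3 batches. The members and nuclei were picked from these same libraries, so this is no independent check.

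**Figure D4:**
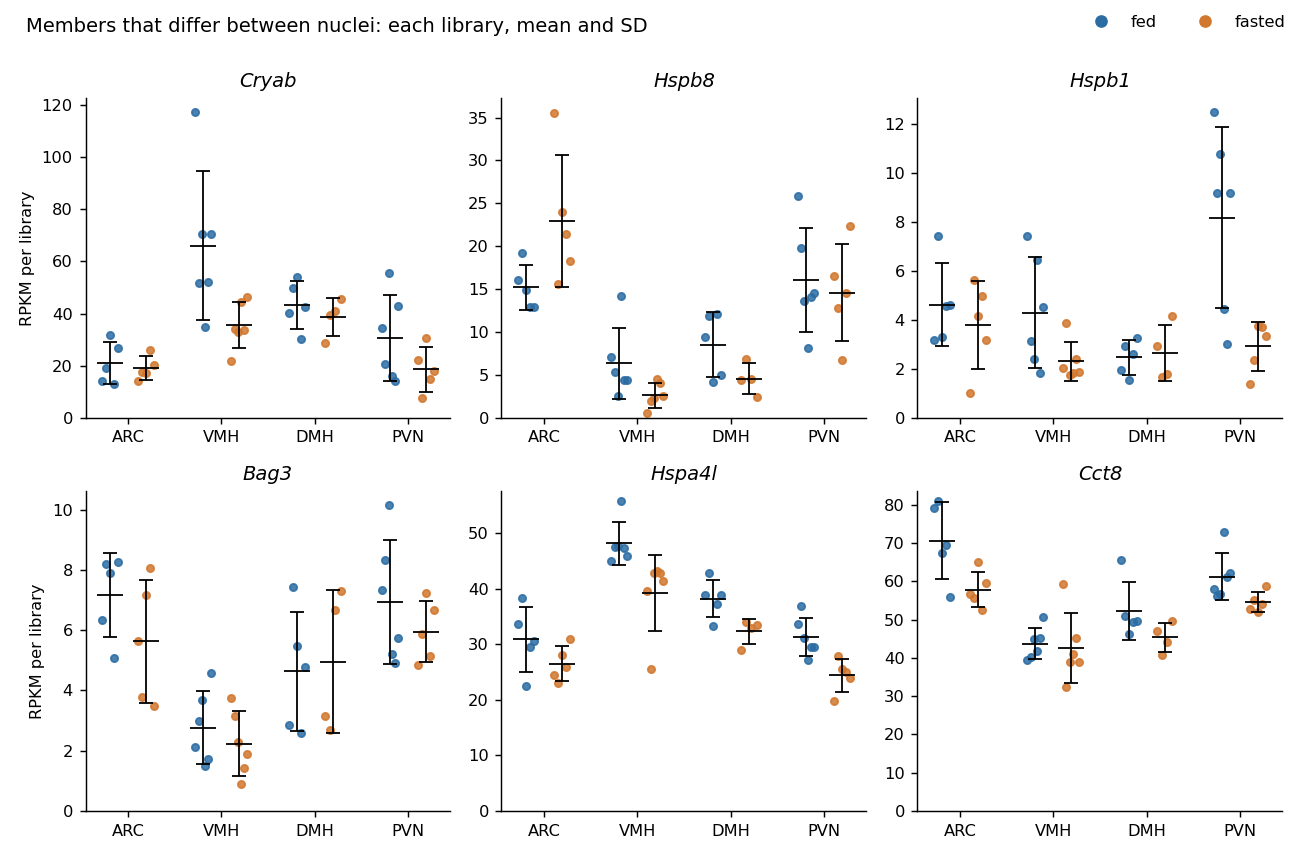
RPKM of 6 members that differed between nuclei. Each point is a library (blue, fed; orange, fasted), black bars are the group mean and SD, and the vertical axes start at 0. Cryab and Hspa4l are highest in the fed VMH (Cryab 34.7 to 117 RPKM), while Hspb8, Bag3 and Cct8 are lowest there (Bag3 1.47 to 4.59 RPKM).

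The other 10 members called in fed mice had smaller gaps. The HSP90 and HSP110 genes Hsp90aa1, Hsp90ab1 and Hsph1 were highest in the ARC and lowest in the DMH, by 0.36 ± 0.08 (adjusted p = 0.004), 0.42 ± 0.08 (adjusted p = 0.000646) and 0.58 ± 0.13 (adjusted p = 0.0102). Hspa8 was higher in the fed PVN than in the DMH by 0.31 ± 0.08 (adjusted p = 0.0143), and Stip1 was higher there than in the VMH by 0.55 ± 0.16 (adjusted p = 0.0262). Dnaja1, Ptges3, Cct2, Cct7 and Tcp1 completed the list, with F-test adjusted p between 0.0147 and 0.0407. St13 and Cct3 were called in fasted mice only (adjusted p = 0.0113 and 0.00425), and whether the nuclei differ more in that state was not tested. Not called in either state were Hspa1a, Hspa1b, Hspa2, Hspa4, Hspa9, Hspd1, Hspe1, Dnaja2, Dnajb4, Dnajb6, Ahsa1, Fkbp4, Chordc1, Cdc37, Cct4, Cct5, Hsf1 and Hsf2.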

How the data were processed

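Gene expression was measured by RNA-seq of laser-captured ARC, VMH, DMH and PVN in 42 libraries. Per the submitters' processing notes and the methods of the study, the authors used CASAVA 1.7, TopHat2 2.0.11 on GRCm38, Cufflinks 2.2.1, edgeR and limma, and removed outlier libraries. The gene counter and annotation release are not given in the sources used here. The values the authors deposited are RPKM. The table held 0 values equal to 0: recurring lowest values showed a count added to the reads (mean 5.0 reads) and 3 batches, which are inferred (at least 12986 shared values within a batch, at most 6959 between batches), and gave the depth estimates (mean 4.57 M reads).

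GENCODE M21 (GRCm38) gave symbols, positions and exon lengths, and named 35965 IDs. RPKM are no counts, so limma 3.58.1 in R 4.3.3 was fitted to log2(RPKM + 1) of the 33579 genes that reached 1 RPKM in 4 or more libraries, with 8 group means, an intensity trend, two-sided tests and Benjamini-Hochberg adjustment over all genes; the fit was checked on simulated data. Single values also had an exact permutation test. Scripts ran in Python 3.11.15 with pandas 2.3.3 and numpy 2.4.6. Replicates are separate libraries; the labels do not name the mouse, so p-values measure the spread between libraries.

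The members and lists were chosen with earlier results of these data known. Library values are given for members called in a fasting comparison and for the 8 members called between fed nuclei with the largest range of group means; outside the set, Fkbp5, Hspa5, Cirbp, Rbm3 and listed genes called with fasting are named. Alternatives were other pseudocounts, filters, scalings, array weights, fits of single nuclei or states, summed paralogs, omitted replicates and a replicate block. Changes within batches were computed without a test. The main fit held no term for batch, and no fit with such a term was run. Replicate numbers were checked only between fed and fasted libraries of a nucleus, which came from different mice. Of 20 such pairs with the same number, 0 had deviations correlated above 0.1. Whether the number marks the same mouse across nuclei was not checked.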

Additional observations from a re-analysis of the deposited data

Results flagged for a closer look

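Of 304 groups of libraries (38 members in 8 groups), 20 held a library set apart from the rest by Dixon's test, in 14 different libraries. Chance flags about 1 in 20 groups, or 15.2 here. Values are RPKM, with the range of the other libraries of the group.

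Among the HSP90, HSP70 and HSP110 genes, Hsp90aa1 was 201.0 in fasted ARC replicate 5 (others 146 to 156), Hsp90ab1 434.4 in fasted VMH replicate 2 (566 to 621), and Hspa8 143.7 (161 to 167) and Hspa4 70.19 (81.1 to 82.8) in fed ARC replicate 5. Hspa4l was 25.52 in fasted VMH replicate 2 (39.6 to 43.3) and 55.8 in fed VMH replicate 4 (45.1 to 47.8), and Hsph1 was 149.4 in fed DMH replicate 2 (96.9 to 107) and 115.2 in fasted PVN replicate 5 (88.0 to 91.2).

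Dnaja2 was 87.16 in fasted VMH replicate 1 (54.8 to 62.4), the library with the lowest depth, and Hspb1 was 3.886 in fasted VMH replicate 2 (1.76 to 2.41). Cdc37 was 30.82 in fasted ARC replicate 3 (19.9 to 21.7) and 41.62 in fasted PVN replicate 1 (21.0 to 25.5). Hsf1 was 26.9 in fasted ARC replicate 3 (19.3 to 20.4) and 38.76 in fed ARC replicate 2 (25.7 to 28.7).

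Among the TRiC subunits, Tcp1 was 31.46 in fasted PVN replicate 2 (47.6 to 50.9), Cct2 143.7 in fed ARC replicate 2 (94.7 to 98.6) and 61.82 in fed VMH replicate 4 (76.2 to 80.8), Cct3 18.42 in fasted PVN replicate 3 (24.4 to 26.3), and Cct8 65.57 in fed DMH replicate 1 (46.2 to 50.8) and 72.85 in fed PVN replicate 4 (56.2 to 62.3). Without the library concerned, the fasting call of Hsp90aa1 in the ARC was kept, and so were the average calls of Hsp90aa1, Hsp90ab1, Hspa8, Hspa4l and Hsph1.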

How the results depend on the processing

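The averaged fasting comparison kept its count within 1.5 times under each alternative run, with 11 to 16 members called, and with 11 to 15 when single libraries were left out. No result recomputed across the alternatives changed direction, but within batches 5 of the 12 members called on average (Hsp90ab1, Hspd1, Dnajb4, Stip1 and Cct7) had a positive change in 1 of 11 combinations of a nucleus and a batch. The PVN count of 2 became 1 with median ratio scaling over well-detected genes, an alternative chosen after seeing the data, and 0 in fits of 1 nucleus at a time, where the ARC count of 1 became 0 as well. Leaving out single libraries gave counts of 0 to 1 in the ARC, 1 to 2 in the PVN, 13 to 18 between fed nuclei and 11 to 14 between fasted nuclei. Within batch 1 the median change of the members was larger in the ARC (-0.417) and VMH (-0.438), and within batch 3 it was smaller in the ARC (-0.066), VMH (-0.115) and DMH (-0.042), and the cause was not tested. With the replicate number as a replicate block, the PVN count was 1, Dnaja1 in the PVN had an adjusted p of 0.255 and Stip1 on average 0.106. Whether that number marks a mouse is not known. Scaling over well-detected genes shifted the median well-detected gene by at most 0.045 on the log2 scale and left the median member between -0.24 and -0.18 in the 4 nuclei. Low depth limits Hspa1b and Hspb1, whose no-read values (0.27 and 0.521 RPKM in 2 batches for Hspa1b, and 1.06 RPKM from its length for Hspb1) are close to their levels, so their fold changes are understated. Hspb8 also came down to about its no-read value (0.561 RPKM from its length) in fasted VMH replicate 1.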
